A study of Mus musculus with 48 samples.

Results

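The cortical response to inhaled nano-sized particulate matter (nPM) was examined in male mice that carry human *APOE*4, the allele with the strongest common effect on Alzheimer risk. The 8 *APOE*4 males of the 48 mice sequenced were 4 filtered air controls (mice 3, 21, 32 and 91) and 4 nPM mice (23, 33, 65 and 93), chosen by the genotype, sex and exposure in their labels. In these *APOE*-TR mice the human allele replaces mouse *Apoe* under the mouse gene's own control, so control and nPM mice both carried the targeted allele and were labelled as differing in exposure alone. Both groups were labelled 6 months old and spent 15 weeks under exposure, with 3 sessions of 5 hr each week. The cerebral cortex was taken whole as bulk tissue, in which fewer cells of a type and less RNA per cell cannot be told apart. Of 18939 genes in the table of the *APOE*-TR exposure, 16870 had at least 1 read in all 8 mice and were tested, and 2069 were left out.

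nPM is a re-aerosolized fraction of urban traffic particles that holds metals and organic combustion products. Inhaled particles reach the nasal epithelium, whose sensory neurons project to the olfactory bulb, and they also act from the lung through circulating mediators. NRF2 switches on antioxidant and iron-storing genes under oxidative stress, NFKB switches on cytokine genes, and the aryl hydrocarbon receptor switches on enzymes that break down combustion products. Neuronal firing induces immediate early genes such as *Fos* within minutes through CREB, a factor that binds the cAMP response element. Interferons act through STAT and IRF factors that bind the interferon-stimulated response element.

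Immediate early genes and interferon-stimulated genes are described at length here, and promoters of 3 of their members are shown because each holds the element by which its group is known. Sequences are from RefSeq on GRCm38.p6, 5′ to 3′ on the gene's strand, and cover the 250 bases before the start site. Capitals mark TGACG, the core of the cAMP response element, on either strand (CGTCA on the other) in *Fos* at chr12:85473640-85473889 (plus strand) and *Nr4a3* at chr4:48045055-48045304 (plus strand), and the core of the interferon element (GAAA, then 2 bases of any kind, then GAAA), on either strand, in *Ifit3* at chr19:34583279-34583528 (plus strand).
Fos: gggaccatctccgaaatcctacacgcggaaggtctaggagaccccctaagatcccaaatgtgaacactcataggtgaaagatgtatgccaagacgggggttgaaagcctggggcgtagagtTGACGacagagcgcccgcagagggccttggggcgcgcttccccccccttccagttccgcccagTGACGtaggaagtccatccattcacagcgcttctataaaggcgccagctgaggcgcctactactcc
Nr4a3: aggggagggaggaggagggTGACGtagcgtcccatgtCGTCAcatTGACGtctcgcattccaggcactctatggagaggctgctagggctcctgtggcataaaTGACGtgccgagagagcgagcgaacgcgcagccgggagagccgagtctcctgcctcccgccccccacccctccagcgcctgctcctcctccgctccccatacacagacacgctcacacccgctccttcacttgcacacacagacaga
Ifit3: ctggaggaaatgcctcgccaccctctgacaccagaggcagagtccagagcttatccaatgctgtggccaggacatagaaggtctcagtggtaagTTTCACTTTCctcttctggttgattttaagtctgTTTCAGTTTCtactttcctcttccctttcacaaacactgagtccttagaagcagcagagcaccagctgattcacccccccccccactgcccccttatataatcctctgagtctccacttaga
TGACG was found 2 times in the *Fos* window and 4 times in that of *Nr4a3*. At least 1 promoter held it for 12 of the 14 immediate early genes with a promoter in the table, against 19.8% of all 27025 genes there. The interferon element core was found 2 times in *Ifit3* and was not found in the same window of *Irf7*. It was present for 8 of 19 interferon response genes with a promoter in the table, against 3.46% of all genes, and a match is only a match of letters.

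The listed genes held an estimated 22.4 to 30.7 M (mega) reads in the control mice and 23.3 to 28.6 M reads in the nPM mice. Values are the authors' CPM, reads scaled to a common library size. Levels of 3 genes were set beside the labels of sex and genotype. *Ddx3y*, on the Y chromosome, stood between 30.4 and 40.9 CPM, *Xist*, the RNA of the inactive X chromosome, at no more than 0.277 CPM, and mouse *Apoe*, which the human allele replaces, between 9.14 and 12.5 CPM in all 8 mice, where B6 groups averaged 208 to 396 CPM in a table normalized separately. Low mouse *Apoe* marks a replaced gene and does not tell *APOE*4 from *APOE*3. Markers of astrocytes, microglia, oligodendrocytes and endothelium had median log2 changes of 0.00055, −0.0041, 0.0083 and 0.01, the last between −0.12 and 0.055 when any 1 mouse was left out. Markers of tissue that borders the cortex had medians further from 0, at −0.68 for choroid plexus and 0.35 for striatum. Summed choroid plexus markers were 111, 601, 33.1 and 851 CPM in the controls and 76.8, 986, 38.6 and 23.4 CPM in the nPM mice, and summed striatal markers were 547, 1019, 367 and 859 CPM against 723, 479, 1309 and 1002 CPM. These sums overlapped between the groups and varied several-fold within each.

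At an unadjusted p under 0.005 in limma, the rule by which the study called differentially expressed genes (DEGs), there were 30 DEGs for nPM, 21 higher (0.124% of genes tested) and 9 lower (0.0533%) in nPM mice. Together they made up 0.178% of the genes, where 84 genes would pass by the threshold alone in the absence of any response. By limma 0 genes met 5% FDR, with 0.955 as the smallest adjusted p and 0.00187 as the smallest unadjusted one, and edgeR and DESeq2 on recovered reads also gave 0. The wider threshold of 0.05 took in 706 genes (4.18%), 461 higher and 245 lower, and 51.8% of all genes had a log2 change above 0. DEG is used below for genes at an unadjusted p under 0.005, with that limit in mind.

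**Figure D1:**
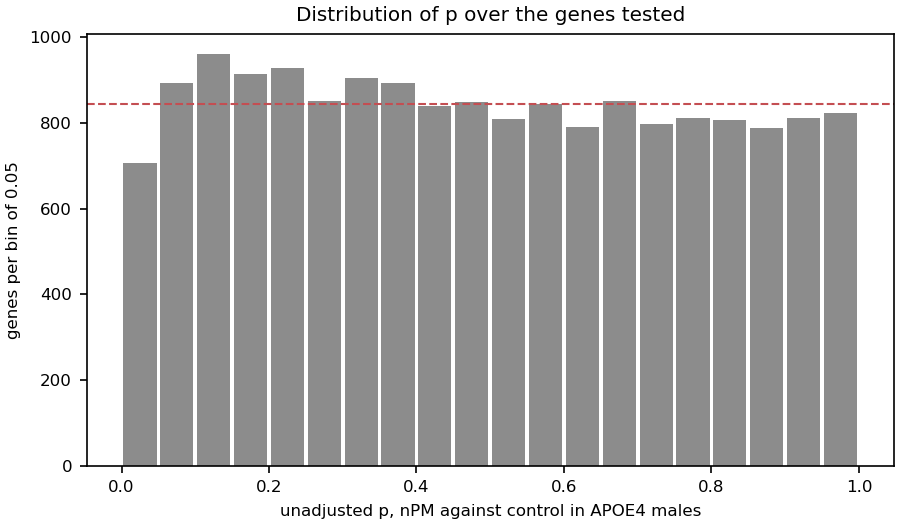
Number of genes (vertical axis) in each bin of 0.05 of the unadjusted limma p for nPM against control in *APOE*4 males (horizontal axis); the dashed line is the 844 genes a bin would hold if p-values were spread evenly. The lowest bin holds 706 genes and lies below the line.

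The data still bound the size of the response on the scale of log2(CPM + 0.5). The median standard error of a gene's log2 change was 0.085, and the 95% interval lay wholly within 0.5 of 0 on the log2 scale for 93.7% of genes and within 1 for 99.4%. Intervals lay within 0.5 for 89.3% of genes under 1 CPM, 88.4% of genes at 1 to 10 CPM, 98.1% of genes at 10 to 100 CPM and 98.5% of genes over 100 CPM. For genes under 1 CPM the added 0.5 CPM itself narrows the intervals, so these do not bound the fold change of such genes. Only 58 genes had an estimated log2 change beyond 0.5, of which 1 was over 100 CPM on average.

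DEGs that were higher with nPM were led by *Ftl1* (chr7:45457944-45459887), the light chain of ferritin, which stores iron. *Ftl1* stood at 46.2, 61.5, 65.8 and 44.2 CPM in control mice 3, 21, 32 and 91 and at 75.5, 71.2, 78.8 and 69.7 CPM in nPM mice 23, 33, 65 and 93, the order of mice used throughout. All nPM mice lay above all controls, with a log2 change of 0.46 (standard error 0.11, unadjusted p = 0.00187 and adjusted p = 0.955 in limma). Ferritin light chain has close copies in the mouse genome. The authors kept only uniquely mapping reads, so reads that match a copy as well may be missing from its count. *Fth1*, the heavy chain, is among the NRF2 targets described below and did not pass the test.

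*Shank1* (chr7:44310264-44358354), a scaffold of excitatory synapses, stood at 139, 138, 140 and 149 CPM in controls and at 171, 186, 159 and 151 CPM with nPM (log2 change 0.24, standard error 0.06). *Kcnj11* (chr7:46097123-46100765), the pore of the ATP-sensitive potassium channel, stood at 36.7, 40.3, 44.9 and 38.9 CPM against 45.1, 49.8, 45.7 and 47.2 CPM (0.23, standard error 0.06). The groups did not overlap for either gene, although the lowest nPM value was close to the highest control in both. *Gabrq*, a rare GABA-A receptor subunit, averaged 0.604 ± 0.0874 CPM (SD, n = 4) in controls and 0.936 ± 0.163 CPM with nPM, and *Adra2a*, the alpha-2A adrenergic receptor, 6.88 ± 0.893 and 8.74 ± 0.548 CPM.

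*Plxnd1* (chr6:115954811-115995006), a semaphorin receptor, had 43.7, 38.7, 34.4 and 46.9 CPM against 53.2, 47.7, 49.4 and 52.7 CPM, and its log2 change was 0.32 (standard error 0.09). *Ptpro*, a receptor tyrosine phosphatase, averaged 12 ± 1.03 and 16.7 ± 3.01 CPM, *Ltbp4*, which binds latent TGF-beta, 15.6 ± 1.90 and 19.3 ± 1.18 CPM, and *Stat5a*, a cytokine-activated transcription factor, 1.45 ± 0.186 and 1.98 ± 0.159 CPM. *Pcdhgb2*, of the gamma protocadherins, averaged 9.78 ± 1.14 and 12.3 ± 0.468 CPM, and since the genes of that cluster share exons its reads cannot be fully told from theirs. *Ptcd1* (mitochondrial RNA processing) and *Lyrm9* differed least among the higher DEGs, with log2 changes of 0.18 and 0.19. *Shisa3*, a modulator of Wnt signaling, had 0.482, 0.580, 0.354 and 0.379 CPM against 1.30, 0.824, 1.74 and 0.639 CPM and the largest log2 change of the DEGs (0.74, standard error 0.19). *Vwa7*, *Zfp618*, *Abcc12*, *Tmem132e*, *Sp7* and *Osgin1* also belonged to the group, with log2 changes between 0.32 and 0.55, of which *Osgin1*, an NRF2 target, rested on as few as 3 reads in a mouse.

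*Th* (chr7:142892776-142899967), tyrosine hydroxylase, the first enzyme of dopamine synthesis, was also among the DEGs, at 0.910, 1.19, 0.686 and 0.923 CPM in controls and 2.12, 1.26, 1.81 and 1.28 CPM with nPM (0.56, standard error 0.15). Dopamine neurons of the olfactory bulb express *Th*, and it is 1 of the olfactory bulb markers used as a check. Of the 7 listed marker symbols 6 were in the table, all but *Pcdh21*. All 5 that could be tested were higher, 4 of them at an unadjusted p under 0.05, where 51.8% of all genes were above 0 and 2.73% higher at that level. The list's median log2 change was 0.67, against 0.004 for all genes. *Cdhr1*, of mitral cells, had 3.86, 4.36, 2.10 and 3.65 CPM against 14.5, 5.63, 9.29 and 4.01 CPM, and *Eomes*, also of mitral cells, had 0.0535, 0.0915, 0.155 and 0.284 CPM against 1.56, 0.412, 0.495 and 0.145 CPM. A gene without reads had a value of 0.0268 CPM in control mouse 3 and 0.0305 CPM in control mouse 21, so *Eomes* rested on very few reads there. *Doc2g* averaged 0.877 ± 0.166 and 1.80 ± 0.843 CPM. Summed over the 6 markers, levels were 5.60, 6.62, 4.20 and 6.09 CPM in controls and 21.5, 9.12, 14.4 and 6.42 CPM with nPM, so 3 of 4 nPM mice stood above all controls. *Shisa3*, *Ptpro*, *Zfp618* and *Th* were also highest in nPM mice 23 and 65, the mice with the most of these markers. With each mouse's marker level as a covariate, a fit chosen after the data were seen, 0 of the 30 DEGs stayed under an unadjusted p of 0.005, all 30 kept their direction, and 15 stayed under 0.05. The log2 change was nearer to 0 for 19 of the 30 and at least as far from it for 11. *Th* went from 0.56 to 0.20, *Shisa3* from 0.74 to 0.31 and *Ptpro* from 0.45 to 0.19, while *Ftl1* went from 0.46 to 0.40, *Atf4* from −0.17 to −0.18, *Nrp1* from −0.37 to −0.48 and *Nr4a3* from −0.43 to −0.58. The marker level was the mean over the 5 tested markers, *Th* among them, so the drop of *Th* is partly built in. 10 other genes passed in that fit. Marker level and exposure group moved together, and the part of olfactory bulb RNA in the DEGs was not tested further.

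DEGs that were lower with nPM included 2 transcription factors of stress and activity. *Atf4* (chr15:80255184-80257546), the main effector of the integrated stress response, stood at 90.0, 87.0, 91.4 and 93.3 CPM in controls and at 83.4, 82.1, 75.2 and 80.2 CPM with nPM, with a log2 change of −0.17 (standard error 0.05). *Nr4a3* (chr4:48045305-48086447), an orphan nuclear receptor and immediate early gene whose promoter is shown above, had 32, 28.2, 24.5 and 23.6 CPM against 21.6, 22.7, 19.9 and 15.7 CPM (−0.43, standard error 0.12). The groups did not overlap for either gene, and for *Nr4a3* the lowest control was within 1 CPM of the highest nPM mouse. *Bhlhe40* (chr6:108660629-108666926), a repressor in the circadian clock that is also induced by activity, had 121, 144, 142 and 131 CPM against 109, 119, 101 and 120 CPM (−0.26, standard error 0.07).

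*Nrp1* (chr8:128359073-128505477), co-receptor of semaphorins and VEGF, stood at 31.9, 29.9, 25.6 and 26.2 CPM in controls and at 24.1, 24.5, 19.8 and 18.8 CPM with nPM (−0.37, standard error 0.10). *Nell1*, a secreted growth factor, averaged 28.3 ± 2.98 and 22.5 ± 2.34 CPM. *Smim7* lay between 74.7 and 78.3 CPM in controls and between 68.2 and 70.4 CPM with nPM, with a log2 change of −0.15 (standard error 0.04). *Ccl17*, a chemokine for T cells, had 1.15, 0.732, 1.22 and 1.07 CPM against 0.673, 0.659, 0.519 and 0.639 CPM (−0.44, standard error 0.11). *Mylk4*, a kinase, and *Dlx4*, a homeobox factor, were under 0.5 CPM in every mouse, and *Dlx4* rested on a single read in 1 of them. Just outside the threshold came *Tceal8* (unadjusted p = 0.00507 in limma) and *Bc1* (also 0.00507), a small RNA that represses translation at synapses, which had 663, 631, 592 and 679 CPM against 581, 574, 507 and 515 CPM, and the histamine receptor *Hrh1* (0.00615).

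**Figure D2:**
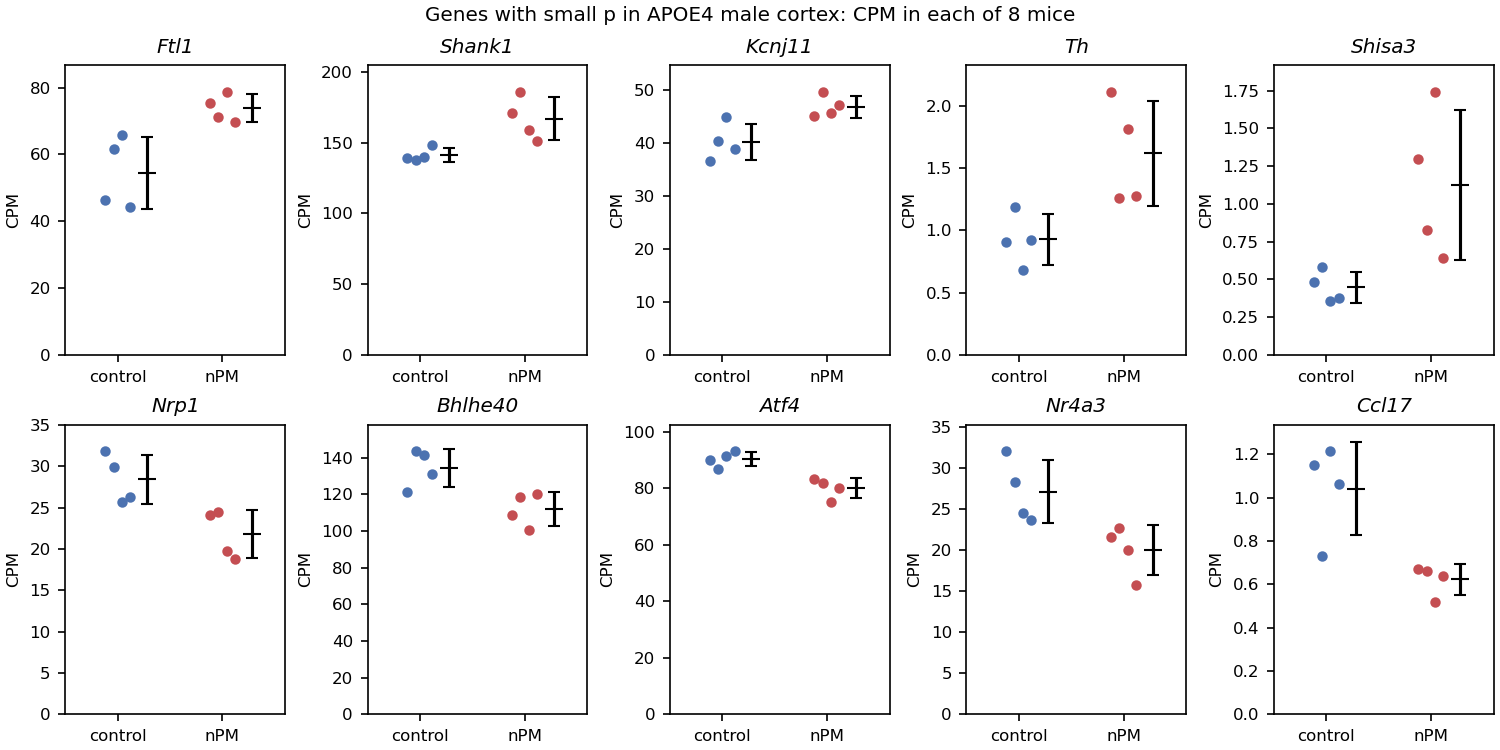
CPM (vertical axis, from 0) of 10 genes with small p in each of the 4 control mice (blue) and 4 nPM mice (red) of *APOE*4 males; black bars are mean ± SD. The groups do not overlap for any of the 10, and *Th* and *Shisa3* spread most among nPM mice.

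The groups did not overlap for 28 of the 30 DEGs (exact permutation p = 0.0286 for each, two-sided and the smallest that 70 labelings of 8 mice allow), against 2.54% of all genes tested (1.08% higher and 1.46% lower). The DEGs were picked by p in these same 8 mice, so this separation follows largely from the choice and is no separate support. *Sp7* and *Ltbp4* overlapped by 1 mouse (exact permutation p = 0.0571 for each). The count of DEGs depended on single mice. It was 15 without nPM mouse 65 and 88 without control mouse 91, and between 4 and 16 of the 30 DEGs were called again when any 1 mouse was left out.

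Immediate early genes were lower with nPM for 15 of 18 members, with a median log2 change of −0.24. *Fos* stood at 12.6, 21.7, 28 and 23.7 CPM in controls and at 10.2, 19.8, 11.1 and 15.1 CPM with nPM, a log2 change of −0.58 (standard error 0.24, unadjusted p = 0.0327 in limma, exact permutation p = 0.114). *Egr2*, another activity-induced transcription factor, had 4.39, 7.17, 7.46 and 7.55 CPM against 3.61, 5.96, 4.20 and 4.47 CPM (−0.48, unadjusted p = 0.0187 in limma). In both genes control mouse 3 was as low as nPM mice, and nPM mouse 33 was nearest to the other controls. *Bdnf*, the neurotrophin, averaged 21.5 ± 2.90 and 17.4 ± 3.23 CPM (unadjusted p = 0.0359 in limma). With *Nr4a3* these made 4 members under an unadjusted p of 0.05, where 1.45% of all genes were lower at that level. *Arc*, which regulates AMPA receptor endocytosis, and *Egr1* had log2 changes of −0.49 and −0.34 and missed that level (unadjusted p = 0.0505 and 0.0502 in limma). Summed over the list, levels were 606, 923, 846 and 850 CPM in controls and 571, 837, 579 and 597 CPM with nPM, so that the groups overlapped through mice 3 and 33. The number of members under 0.05 was 9 without control mouse 3, 8 without nPM mouse 33 and 2 without any of control mice 21, 32 and 91 or nPM mice 23 and 65.

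Interferon response genes were higher with nPM for 21 of 23 members, with a median log2 change of 0.15, and 5 of them had an unadjusted p under 0.05 (2.73% of all genes were higher at that level). *Irf7*, the interferon regulatory factor that sustains the response, stood at 0.535, 0.763, 0.708 and 0.923 CPM in controls and at 0.913, 1.15, 2.24 and 0.930 CPM with nPM (0.51, standard error 0.19). *Ifit3* (chr19:34583529-34588983), an antiviral effector, had 6.69, 5.89, 8.54 and 6.77 CPM against 7.67, 9.70, 17.8 and 7.67 CPM (0.52, standard error 0.22), and *Tap2*, a peptide transporter of antigen presentation, 3.53, 3.20, 2.99 and 3.79 CPM against 3.80, 4.48, 4.43 and 3.92 CPM (0.27). *Iigp1*, an interferon-induced GTPase, and *Usp18*, which limits interferon signaling, were also highest in nPM mouse 65, at 3.02 and 1.91 CPM. Summed over the list, levels lay between 157 and 160 CPM in controls and were 162, 171, 199 and 161 CPM with nPM. Without nPM mouse 65 the median log2 change was 0.048, and 2 members had an unadjusted p under 0.05.

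Endoplasmic reticulum stress genes, the chaperones and factors of the unfolded protein response, were lower with nPM for 16 of 16 members (median log2 change −0.13), and heat shock proteins for 13 of 15 (−0.13). Of the 31 genes only *Atf4* had an unadjusted p under 0.05. *Hspa5*, the main chaperone of the endoplasmic reticulum, averaged 188 ± 69.2 CPM in controls and 159 ± 13.8 CPM with nPM. The summed levels of the endoplasmic reticulum list were 1101, 1528, 1113 and 1091 CPM in controls and 1101, 1149, 1024 and 1083 CPM with nPM, and control mouse 21 also stood apart for the heat shock proteins, at 3142 CPM where the other controls were at 2554 to 2609 CPM. Without this mouse the medians were −0.0042 and −0.027.

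Antioxidant, inflammatory and xenobiotic pathways had few members under an unadjusted p of 0.05, where 2.73% of all genes were higher and 1.45% lower at that level. Among 25 NRF2 targets 14 were higher and 11 lower (median log2 change 0.012), and *Ftl1* and *Osgin1* were the 2 under an unadjusted p of 0.05. *Nqo1*, *Gclc* and *Gclm*, the enzymes most used as readouts of NRF2, had log2 changes of 0.017, 0.013 and −0.028, and *Hmox1*, heme oxygenase, averaged 3.48 ± 0.487 and 3.11 ± 0.544 CPM (−0.14, standard error 0.13). *Nfe2l2*, which encodes NRF2, stood at 12.7 ± 0.989 and 12.6 ± 0.905 CPM, and none of the 9 CNC and Maf regulators passed an unadjusted p of 0.05. *Nfkb1* averaged 9.67 ± 0.564 and 9.75 ± 0.347 CPM. Of 16 NFKB subunits and regulators only *Bcl3*, a nuclear IκB-like coactivator, had an unadjusted p under 0.05, at 0.161 ± 0.0380 and 0.0782 ± 0.0215 CPM. In the nPM mice *Bcl3* was near the value of a gene without reads, 0.0236 to 0.0291 CPM. Of 22 inflammatory NFKB targets 13 could be tested, since *Tnf*, *Il6*, *Ccl2* and others were without reads in at least 1 mouse. *Ptgs2*, cyclooxygenase 2, which neurons also induce with activity, was the 1 member under 0.05 and was lower, at 12.8, 12.4, 13.1 and 11.1 CPM against 9.06, 11, 9.26 and 11.2 CPM (−0.27, standard error 0.09). In the aryl hydrocarbon receptor pathway *Aldh3a1* was lower (0.928 ± 0.0671 and 0.576 ± 0.277 CPM), and *Cyp1b1*, a standard target, had a log2 change of −0.074 (standard error 0.16).

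Metal and iron handling genes had no member under an unadjusted p of 0.05, and *Mt1* and *Mt2*, the metallothioneins, had log2 changes of 0.21 (standard error 0.13) and 0.23 (standard error 0.15). Among 22 genes of cholesterol and lipoproteins, enzymes of cholesterol synthesis that were lower at that level included *Cyp51* (log2 change −0.14) and *Sqle* (−0.12). Of all genes 1.45% were lower and 2.73% higher at that level. The lipoprotein receptor *Lrp1*, which takes up APOE, was higher (0.17, standard error 0.06), at 218, 247, 225 and 246 CPM against 255, 280, 268 and 248 CPM, as was *Apoc1* (0.22), which lies beside *Apoe* and was under 0.5 CPM. Complement had *C1qc* (0.21), the hypoxia targets *Pfkfb3* (−0.24), and the circadian clock genes *Bhlhe40* at an unadjusted p under 0.05. GABA-A receptor subunits on the list, glucocorticoid targets and the 18 amyloid and tau genes had no such member, *App* among them with 999 ± 5.90 and 985 ± 38.8 CPM. A list of 33 genes that the study itself names for cortex RNA was chosen on these samples. It had no member under 0.05 either (24 higher, median log2 change 0.033). The list is not complete, since the paper also names *Apoc1* and *Eomes* among its qPCR primers and *Grin2a* and *Grin2b* in its discussion. In the mice examined here *Apoc1* and *Eomes* were under 0.05 (unadjusted p = 0.0371 and 0.0270 in limma). *Grin2a* and *Grin2b* were not (unadjusted p = 0.0956 and 0.0593 in limma).

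Ionotropic glutamate receptors were higher for 9 of 16 members, where 51.8% of all genes were above 0 (median log2 change 0.065). Under an unadjusted p of 0.05 were 2 members, both higher, where 2.73% of all genes were higher at that level. *Grin2d*, an NMDA receptor subunit, had 4.63, 3.48, 4.80 and 4.85 CPM against 5.38, 6.13, 4.95 and 5.20 CPM (0.27, standard error 0.11) and did not overlap between groups, and *Grik5*, a kainate receptor subunit, averaged 81.5 ± 14.4 and 94.6 ± 5.46 CPM (0.24). *Grin1*, the obligatory NMDA receptor subunit, averaged 198 ± 19.8 and 216 ± 9.59 CPM (0.13, standard error 0.07). The mean log2 level of the list lay 0.068 to 0.092 above the control mean in the 4 nPM mice and between −0.038 and 0.027 in the controls. Summed levels of the list overlapped, at 1845, 1818, 1775 and 1751 CPM in controls and 1862, 1774, 1810 and 1833 CPM with nPM. With 2 CPM added in place of 0.5 before the log, the median was 0.032. In *APOE*4 and *APOE*3 females 15 of 16 members were higher (medians 0.14 and 0.61, 6 and 4 under 0.05). There 5.56% and 21% of all genes were under 0.05 in either direction. *APOE*3 males had 11 of 16 higher (0.046), B6 males 8 of 15 (0.0018) and B6 females 5 of 15 (−0.067).

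Among other cell type markers, *Slc32a1*, the vesicular GABA transporter, was higher (47.7 ± 5.86 and 58.6 ± 9.08 CPM) and *Neurod6*, of cortical excitatory neurons, lower (79.7 ± 7.26 and 63.3 ± 11.1 CPM) at an unadjusted p under 0.05, while their lists had medians of 0.037 and −0.051. *Cspg4* was the 1 of 7 oligodendrocyte precursor markers at that level (0.25), where 2.73% of all genes were higher and 1.45% lower. Striatal markers were higher for 8 of 8 members (median log2 change 0.35), red blood cell markers for 5 of 5 (0.46), and choroid plexus markers lower for 8 of 8 (−0.68), with no member of these lists under 0.05. These medians rested on single mice, with ranges of 0.089 (without control mouse 32) to 0.61 (without nPM mouse 33) for striatal markers, 0.17 (without control mouse 21) to 0.71 (without control mouse 91) for red blood cells and −1.42 (without nPM mouse 33) to −0.40 (without control mouse 91) for choroid plexus. *Slc32a1* was highest in mouse 65, which also had the highest striatal sum, and the part of striatal RNA in that result was not tested.

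**Figure D3:**
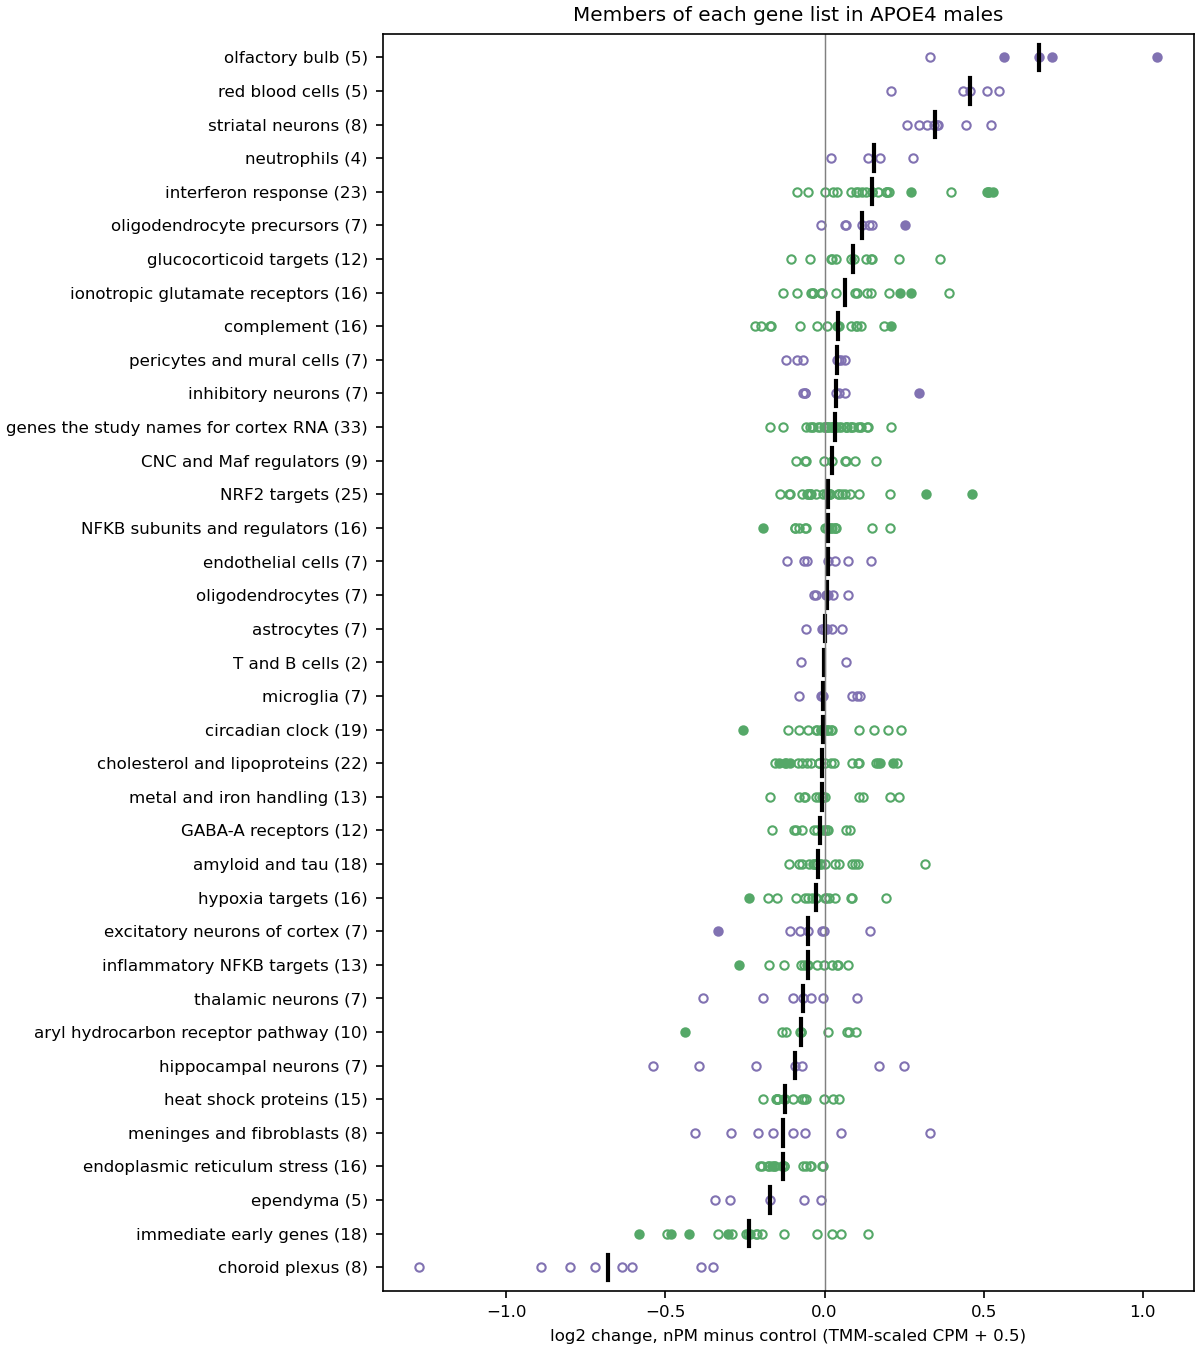
log2 change of each tested member (points; filled at an unadjusted p under 0.05) of every pathway list (green) and cell type marker list (purple) in *APOE*4 males, with the list median as a black bar and the number of tested members in brackets. Olfactory bulb markers lie highest (median 0.67) and choroid plexus markers lowest (−0.68), and immediate early genes have the lowest median of the pathway lists.

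Whether these responses were shared with other mice was asked of groups with controls of their own, with B6 mice, which were 4 months old after 8 weeks of exposure, fitted in their own table. Of the 30 DEGs of *APOE*4 males, 16 had the same direction in *APOE*3 males (53.3% of all genes there were above 0), and 0 of them had an unadjusted p under 0.05 there, where 2.24% of all genes did. In *APOE*4 females 20 of 30 had the same direction (50.7% of all genes above 0), and *Pcdhgb2*, *Th* and *Lyrm9* were under 0.05 in that direction (5.56% of all genes in either direction), while *Mylk4* was under 0.05 in the opposite one. *Th* is an olfactory bulb marker, and those markers were higher for 3 of 4 tested in *APOE*4 females (median log2 change 0.46, all 3 under 0.05) and for 5 of 5 in *APOE*3 males (0.30, none under 0.05). They went the other way in *APOE*3 females, with 0 of 5 higher (−0.77, 3 lower under 0.05). B6 males had 1 of 3 higher (−0.023, none under 0.05). *Ftl1* averaged 72.7 ± 13.5 and 70.7 ± 5.50 CPM in *APOE*3 males and 96.8 ± 43 and 77.7 ± 22.8 CPM in *APOE*4 females. *Atf4* stood at 84.0 ± 6.27 and 83.6 ± 5.13 CPM in *APOE*3 males, and *Nrp1* at 23.7 ± 3.30 and 26.7 ± 4.65 CPM. In *APOE*3 females, where 1 control column carried an animal number found in no sample label, 20 of 29 had the same direction (49.7% of all genes above 0), with *Kcnj11*, *Plxnd1* and *Dlx4* under 0.05 and 3 genes under 0.05 in the opposite direction (21% of all genes in either). B6 males gave 9 of 20 in the same direction (51.1% above 0), 1 under 0.05 (4.33% of all genes in either), and B6 females 12 of 17 (49.1% above 0), 2 under 0.05 (10.3%), with some B6 libraries shallower, at 2.05 to 24.4 M reads.

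**Figure D4:**
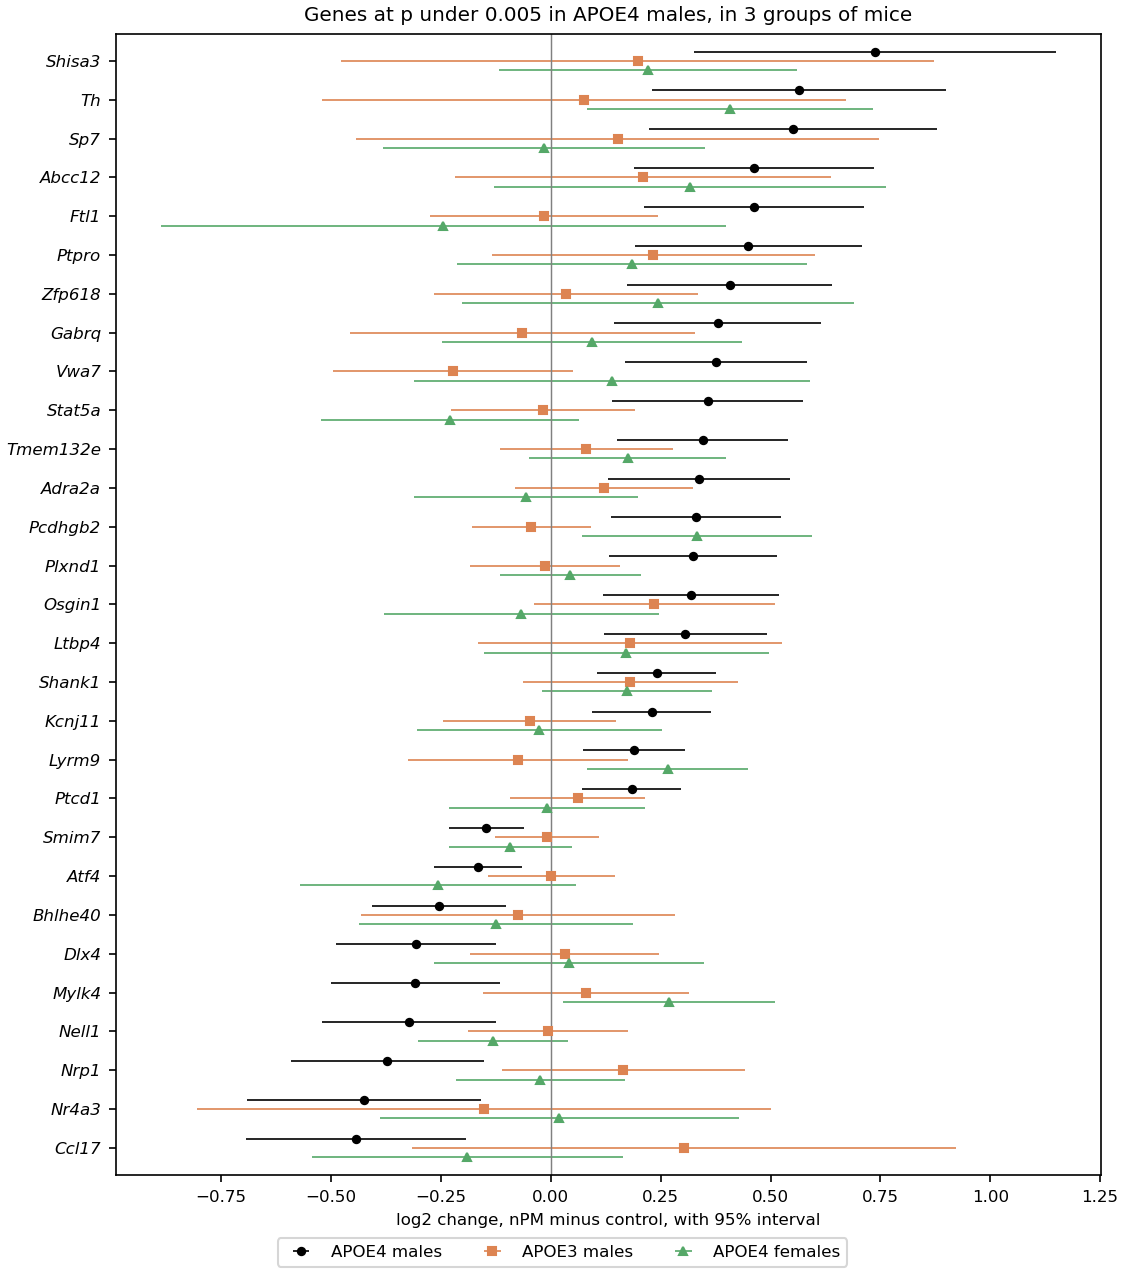
log2 change with nPM (horizontal axis) and its 95% interval for 29 of the 30 DEGs of *APOE*4 males in *APOE*4 males (black circles), *APOE*3 males (orange squares) and *APOE*4 females (green triangles), 4 control and 4 nPM mice in each group. The genes were chosen by the black values, and 0 of the 29 intervals of *APOE*3 males leave 0 on the same side.

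The difference of the response between *APOE*4 and *APOE*3 males was tested as a contrast over the 16 *APOE*-TR males. Of 16578 genes 15 (0.0905%) fell under 0.005, unadjusted, with the response above that of *APOE*3 in 10 (0.0603%) and below it in 5 (0.0302%). At 5% FDR there were 0, and 402 fell under an unadjusted 0.05 (smallest adjusted p = 1.00 in limma). A difference above 0 was found for 49.2% of all genes. The smallest p was that of *Bola1*, a mitochondrial protein of iron-sulfur cluster maturation. *Bola1* went from 1.62 ± 0.271 to 2.15 ± 0.169 CPM in *APOE*4 males and from 1.99 ± 0.116 to 1.6 ± 0.0824 CPM in *APOE*3 males, a difference of 0.58 in log2 change (standard error 0.13, unadjusted p = 0.000403 in limma). *Vwa7* (0.60) and *Pcdhgb2* (0.37) followed. On the other side stood *E030013I19Rik* (−0.63), *Six4*, a homeobox factor (−0.74), and *Fut11*, a fucosyltransferase (−0.35), which averaged 17.3 ± 1.40 and 15.7 ± 0.382 CPM in *APOE*4 males and 15.4 ± 0.442 and 17.9 ± 0.984 CPM in *APOE*3 males.

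Of the pathway lists, the chaperones had the most members with a difference between these male groups under an unadjusted p of 0.05. Marker lists had larger medians with at most 1 member under 0.05, such as choroid plexus (difference −1.26, 8 of 8 below 0) and striatal neurons (0.59, 8 of 8 above 0). Endoplasmic reticulum stress genes were higher with nPM for 15 of 16 members in *APOE*3 males (median log2 change 0.20, 6 under an unadjusted p of 0.05, where 1.32% of all genes were higher at that level), and the difference of response was below 0 for 15 of 16 (median −0.32, 8 under 0.05, among them *Creld2*, *Pdia4*, *Hyou1*, *Calr* and *Atf4*). For heat shock proteins the difference was below 0 for 15 of 15 (median −0.23, 4 under 0.05), where 1.39% of all genes had a difference below 0 at that level and 1.03% one above 0. Members of 1 list are induced together and are not separate observations. In *APOE*3 males the mean log2 level of the endoplasmic reticulum list stood 0.44, 0.29 and 0.16 above the control mean in nPM mice 76, 58 and 56 and at −0.063 relative to it in mouse 53. Without *APOE*4 control mouse 21 the medians of the difference were −0.19 and −0.14, with 2 and 1 members under 0.05, and without *APOE*3 nPM mouse 76 they were −0.25 and −0.19, with 1 and 2.

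The difference between *APOE*4 males and *APOE*4 females was tested over those 16 mice. Of 16362 genes 33 (0.202%) fell under 0.005, unadjusted, with the response above that of females in 23 (0.141%) and below it in 10 (0.0611%). At 5% FDR there were 0, and 662 fell under an unadjusted 0.05 (smallest adjusted p = 0.953 in limma). A difference above 0 was found for 49.4% of all genes. The smallest p was that of *Tgtp1*, an interferon-induced GTPase, at 1.03 ± 0.181 and 1.22 ± 0.420 CPM in males and 1.48 ± 0.218 and 0.535 ± 0.163 CPM in females (difference 1.08, standard error 0.22, unadjusted p = 0.00012 in limma). *Cldn22* (0.81), a claudin, and *Ccdc163* (0.66) followed. *Mylk4* (−0.58), *Ptgs2* (−0.54) and *Mir6390* (−0.48) lay on the other side. *Ptgs2* went from 8.97 ± 0.952 to 10.9 ± 1.16 CPM in females.

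Interferon response genes had a response above that of females for 23 of 23 members (median difference 0.60), with 12 under an unadjusted p of 0.05 and *Tgtp1*, *Iigp1* and *Irf7* under 0.005, where 2.55% of all genes had a difference above 0 under 0.05. In females 23 of 23 members were lower with nPM (median log2 change −0.51, 8 under 0.05, where 2.72% of all genes were lower at that level). The mean log2 level of the list stood 0.72 above the control mean in female control mouse 21 and between 0.29 and 0.20 below it in the other female controls, and all 4 nPM females lay between 0.57 and 0.41 below it. *Irf7* ranged from 0.731 to 3.02 CPM in female controls and from 0.325 to 0.706 CPM in nPM females. Markers of other cells were also lower in nPM females, with 0 of 7 endothelial markers higher (median log2 change −0.39, 2 lower under 0.05), 0 of 7 microglial (−0.19, none under 0.05), 1 of 7 mural (−0.18, 3 lower under 0.05), 0 of 8 meningeal (−0.27, 2 lower under 0.05) and 0 of 8 choroid plexus markers (−1.03, 3 lower under 0.05). The difference of response, males less females, was above 0 for 7 of 7 endothelial markers (median 0.36, 2 under 0.05) and 7 of 7 microglial markers (0.23, none under 0.05), and the part of these cells in the interferon result was not tested. Without female control mouse 21 the median difference was 0.37 with 11 members under 0.05, and without male nPM mouse 65 it was 0.57 with 9. Against *APOE*3 males the difference of response was above 0 for 20 of 23 members (median 0.14), with 0 under 0.05. In *APOE*3 males 9 of 23 members were higher with nPM (median log2 change −0.0068, 0 under 0.05).

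Immediate early genes were higher with nPM for 17 of 18 members in *APOE*4 females (median log2 change 0.20), and the difference of response was below 0 for 17 of 18 (median −0.46), with *Egr2*, *Fos* and *Btg2* under an unadjusted p of 0.05 and 1.5% of all genes at that level in that direction. *Fos* averaged 25.2 ± 9.67 and 30.7 ± 7.45 CPM in females. Leaving out 1 mouse moved the number of members under 0.05 between 0, without male nPM mouse 23, and 10, without male nPM mouse 33. In *APOE*3 males 13 of 18 members were lower (median −0.13), with none under 0.05.

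**Figure D5:**
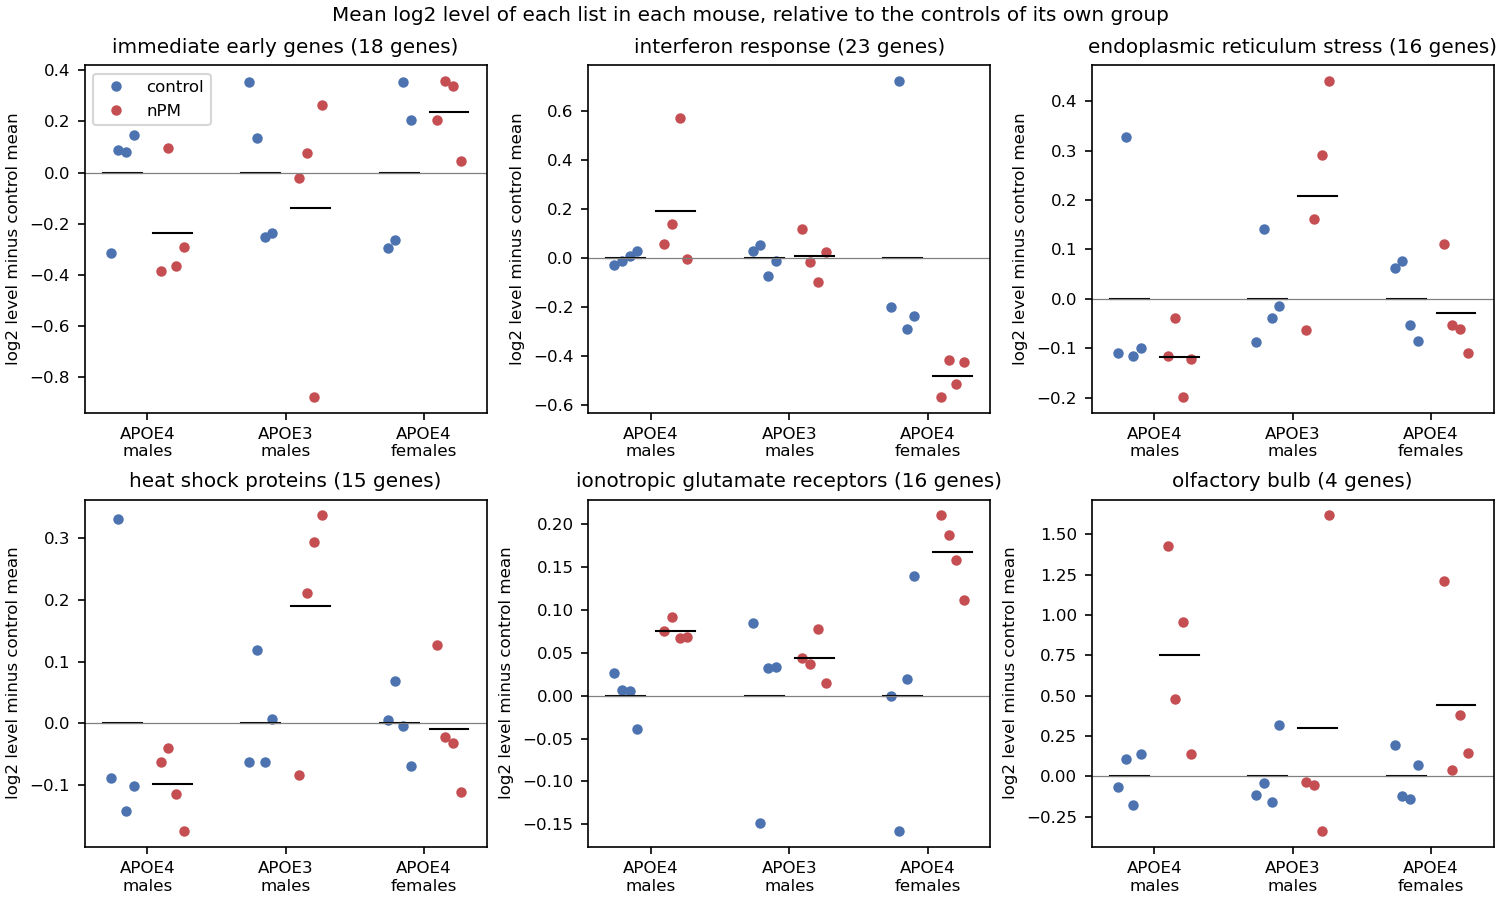
Mean log2 level of 6 gene lists in each control (blue) and nPM (red) mouse, less the mean of the controls of the same group (vertical axis), in *APOE*4 males, *APOE*3 males and *APOE*4 females; black lines are group means. Single mice stand apart in several panels, such as *APOE*4 male nPM mouse 65 (0.57) and *APOE*4 female control mouse 21 (0.72) for the interferon response.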

How the data were processed

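RNA of whole cortex was sequenced from stranded libraries, aligned by the authors with TopHat2 2.0.8b to mm10 (GRCm38) and counted on RefSeq genes in Partek Flow. Only uniquely mapping reads were kept. The authors deposited CPM (counts scaled to library size), laid out as reads, plus 1, times a fixed step. Read this way, between 96.2 and 96.9% of low values (up to 20 times the column minimum) were whole within 0.1 in *APOE*4 males, and reads were rounded for count tests. Listed reads were 22.4 to 30.7 M per mouse, and precision is given as standard errors over mice. The 4 rows with a repeated symbol were not used.

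CPM were scaled by TMM (edgeR 4.0.16), and log2(CPM + 0.5) was fitted with limma 3.58.1 (trend) in R 4.3.3. P-values were two-sided and adjusted by the Benjamini-Hochberg method over all genes tested. A log2 change on this scale understates that of low genes. Exact permutation tests used all 70 labelings. Differences of response were contrasts over 4 groups of 4 mice. Whether mice shared litters or exposure chambers is not given in the sources used here, so p-values measure the spread between these mice. The fits were run on simulated data with planted changes larger than those of the DEGs. That run does not say how well changes of the observed size are found.

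Named genes were the first 12 by p among those higher and those lower, the first 3 on each side of each difference, members of each list at an unadjusted p under 0.05 (at most 4 a direction) or else the member with the smallest p, and label checks. Other members (such as *Nqo1*, *Nfkb1*, *Arc*, *Usp18*, *Hspa5* and *App*) were named after their values were seen. Members and lists were chosen with earlier results of these data known. Alternatives were other scalings, filters, added constants, DESeq2 1.42.0 and edgeR on recovered reads, a variance shared over 32 mice, marker covariates and each mouse left out. Some genes under this rule are not reported here.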

Additional observations from a re-analysis of the deposited data

Results flagged for a closer look

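Dixon's test was applied 190 times, each time to 1 gene or list in the 4 controls or the 4 nPM mice. In 9 of these tests 1 mouse stood apart from the other 3, where chance sets 1 apart in about 1 test in 20. The tests share the same mice and are not independent. Control mouse 21 stood apart for endoplasmic reticulum stress genes (1528 CPM summed, others 1091 to 1113), heat shock proteins (3142 CPM, others 2554 to 2609) and *Grin2d* (3.48 CPM, others 4.63 to 4.85). nPM mouse 33 stood apart for immediate early genes (837 CPM summed, others 571 to 597), choroid plexus markers (986 CPM, others 23.4 to 76.8) and inflammatory NFKB targets (149 CPM, others 139 to 140). nPM mouse 65 stood apart for *Iigp1* (3.02 CPM, others 0.930 to 1.20), control mouse 3 for *Egr2* (4.39 CPM, others 7.17 to 7.55) and control mouse 32 for *Zfp618* (0.398 CPM, others 0.580 to 0.592).

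Of 186 pairs of responses, 1 went opposite ways without overlap. *Iigp1* was higher in every nPM male with *APOE*4, while *APOE*4 females averaged 0.680 CPM with nPM and 1.51 ± 0.790 CPM in controls. The difference of response was 1.21 on the log2 scale (unadjusted p = 0.0023, adjusted p = 0.953 in limma). Many of the genes named here, *Iigp1* among them, were chosen by a small p in *APOE*4 males, which favors groups that do not overlap there. Of all genes, 2.54% did not overlap between control and nPM in *APOE*4 males. How often all genes go opposite ways without overlap was not counted, so this pair is not shown to exceed chance.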

How the results depend on the processing

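No gene passed 5% FDR in limma under any alternative, edgeR and DESeq2 on recovered reads included, nor in either difference test. The 30 DEGs were 48 without a filter, 3 with the variance shared over 32 mice, 52 in DESeq2, 10 with olfactory bulb markers as a covariate and 55 with choroid plexus markers. Both covariates were chosen after seeing the data. Without scaling the split was 18 higher and 13 lower. The 706 genes under 0.05 were 181 with shared variance and 406 with olfactory bulb markers. Leaving out 1 mouse gave 15 to 88 DEGs (17 without control mouse 32, 54 and 48 without nPM mice 33 and 93), 431 to 1213 genes under 0.05 and 90.7 to 92.3% of intervals within 0.5.

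For the difference from *APOE*3 males, the 15 genes were 30 without a filter and 5 with shared variance, the 402 were 141, and leaving out 1 mouse gave 10 to 57 (57 without *APOE*3 nPM mouse 53, 33 without *APOE*4 nPM mouse 33, 24 to 27 without *APOE*3 mice 55, 58 or 63 or *APOE*4 control mice 3 or 91) and 290 to 736. For *APOE*4 females, shared variance gave 19 and 272, and leaving out 1 mouse 24 to 73 (73 without male control mouse 91, 55 and 50 without female control mice 26 and 38) and 475 to 1061. The glutamate receptor median was 0.032 with 2 CPM added. Leaving out 1 mouse moved list medians across or near 0, from −0.017 to 0.010 for NFKB regulators, −0.054 to 0.011 for metal and iron handling, −0.011 to 0.068 for complement, −0.052 to 0.022 for cholesterol, −0.048 to −0.0037 for hypoxia targets, −0.079 to 0.056 for mural cells and −0.035 to 0.041 for inhibitory neurons. *Eomes* reversed to −0.13 with olfactory bulb markers as covariate, of which it is itself 1. No other gene changed direction among the 58 whose response in *APOE*4 males was followed through the alternatives. Other named genes of this response, such as *Nqo1* and *App*, were not followed. The causes were not tested. No paired analysis was possible because control and nPM mice share no animal number.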
